A study of Mus musculus with 62 samples.

Results

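The mitochondrial protein import machinery was followed in mouse gastrocnemius, a fast hind limb muscle, during melanoma cachexia, the muscle and fat wasting that accompanies some cancers. Its members were taken by symbol: every gene named Tomm or Timm followed by a digit, plus Pmpca, Pmpcb, Pam16, Grpel1, Grpel2, Chchd4, Samm50, Mtx1, Mtx2, Oxa1l, Immp1l and Immp2l. The rule found 37 of the 47643 genes in the table and used no measured value. Of these, 34 reached 1 TPM, the length-normalised unit of abundance used here, in all 62 libraries and were tested. The other 3 were not: Tomm20l was listed at 0, Timm8a2 had a mean of 0.0063 TPM, and Tomm6os, an antisense RNA that carries a matching symbol, had a mean of 0.231 TPM.

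The mice were females aged 2 months. CAC mice were given melanoma cells that cause cachexia, NCAC mice were given melanoma cells that do not, and Con mice were mock injected without tumour cells. The muscle was sampled 2, 4, 6 or 8 weeks later. Each of the 12 groups held 5 libraries, except CAC at 8 weeks with 7. The series text gives the mice as NCI Ath/nude, which lack mature T cells, whereas the sample labels give C57BL/6J, so the strain is uncertain here. The cell lines are not named in the labels, the treatment entry is the same for every sample, and groups were taken from the sample descriptions. The labels call the replicates biological but tie none to a named animal, so p-values measure the spread between these samples.

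Nearly all mitochondrial proteins are encoded in the nucleus and made in the cytosol, so they must be imported. The TOM complex of the outer membrane is the common entry gate. From there, proteins with a cleavable presequence pass through the TIM23 translocase and its motor into the matrix, carrier proteins are escorted by small TIM chaperones to TIM22, and beta-barrel proteins are built into the outer membrane by SAM. Skeletal muscle is rich in mitochondria, and its oxidative capacity depends on this supply route.

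The promoters of the import genes were searched for 4 motifs, and windows around the matches are shown for 9 of the genes described below. RefSeq promoters (GRCm38.p6, 250 bases before to 50 after each start) were found for 30 of the 34 tested members. The ETS and GABP motif CCGGAAG, searched on both strands, stood in 12 of 30 (40.0%), against 19.7% of the 9280 tested genes with a promoter and 9.93% of all 27025 genes with a promoter. A gene counted if any of its promoters held the motif. The NRF1 motif (GCGCA, any base, then GCGC) stood in 5 (16.7%, against 11.6% and 5.19%), the E-box CACGTG in 4 (13.3%, against 11.9% of tested genes), and the CEBP and ATF4 composite TGATGCAAT in 0 (against 0.162% of tested genes). NRF1 and GABP are textbook regulators of nuclear genes for mitochondria, but a match is only a match of letters. Capitals mark the motif or its reverse complement, and each window is written 5′ to 3′ on the gene's strand.
Pmpcb, chr5:21737124-21737159, plus strand, ETS: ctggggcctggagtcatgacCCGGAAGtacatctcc
Pmpca, chr2:26389275-26389321, plus strand, ETS: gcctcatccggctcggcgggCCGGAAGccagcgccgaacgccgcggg
Tomm34, chr2:164071182-164071228, minus strand, ETS: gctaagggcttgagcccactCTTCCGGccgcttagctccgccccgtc
Tomm22, chr15:79670804-79670850, plus strand, ETS: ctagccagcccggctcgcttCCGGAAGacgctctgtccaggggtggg
Tomm70a, chr16:57121614-57121660, plus strand, ETS: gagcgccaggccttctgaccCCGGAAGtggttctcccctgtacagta
Timm8b, chr9:50603869-50603900, plus strand, ETS: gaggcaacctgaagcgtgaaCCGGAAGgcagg
Tomm20, chr8:126945922-126945961, minus strand, NRF1: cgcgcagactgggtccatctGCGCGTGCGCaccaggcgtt
Oxa1l, chr14:54360798-54360840, plus strand, NRF1: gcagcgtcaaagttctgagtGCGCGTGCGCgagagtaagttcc
Timm9, chr12:71136708-71136753, minus strand, E-box: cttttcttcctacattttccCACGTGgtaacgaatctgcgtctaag
The ETS motif was present at Pmpcb, which fell in cachectic muscle on both scales described below, and also at Tomm34 and Tomm22, which rose as deposited but not after rescaling (Tomm22 was then called lower). Motif presence was not tested against direction.

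Values are the TPM that the authors deposited, whose total is the same in every library, with an estimated 40300000 to 49100000 reads per library and at least 185 estimated reads for every tested member. The 6 fast-fibre markers summed at 8 weeks to a median of 116308 TPM (88307 to 140963) in CAC, 138182 (135028 to 161912) in NCAC and 137862 (123227 to 143199) in Con, and at 6 weeks to 124869 (87054 to 144587), 127479 (100822 to 142846) and 136392 (113261 to 148027). The CAC median was the lowest of the 3 groups in both weeks, and the ranges of CAC and Con overlapped. The share of TPM taken by transcripts of the mitochondrial genome was lower in CAC, at 24.2% ± 3.53 (SD, n = 7) against 33.5% ± 3.02 (n = 5) in Con at 8 weeks. Because TPM sums to a constant, the other genes together gain when that share falls. The CAC against Con differences were therefore also computed after median-ratio rescaling of the libraries. Over all tested genes, rescaling lowered a gene's log2 difference by a median of 0.35 at 8 weeks and 0.08 at 2 weeks. How much of this shift goes with the mitochondrial share was not tested. The counts of genes that passed the adjusted test in all libraries are given on both scales, as deposited and rescaled. The marker sums, the TPM of single libraries and the fits with fewer libraries are on the deposited scale only. In CAC at 8 weeks the summed macrophage markers were at a median of 385 TPM (265 to 817) against 122 (84.7 to 304.8) in Con, fibroblast markers at 646 (407 to 990) against 312 (278 to 424), adipocyte markers at 1935 (933 to 2792) against 673 (645 to 1550) and endothelial markers at 121 (106 to 171) against 84.6 (61.4 to 96.3). Melanocyte genes summed to at most 8.95 TPM there. The part of these cells in the results below was not tested, and in whole muscle fewer cells of a type and less RNA per cell cannot be told apart.

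At 8 weeks, most of the import genes called in cachectic muscle on the deposited scale were higher, and every member called after rescaling was lower. In CAC against Con, limma on log2(TPM + 1) with Benjamini-Hochberg adjustment called 15 of 34 members higher and 2 lower, and after rescaling it called 0 higher and 23 lower. Of all 12364 tested genes, 65.3% were called higher and 5.55% lower as deposited, and 24.9% higher and 21% lower rescaled. Among the members 44.1% were called higher and 5.88% lower as deposited, and 0% higher and 67.6% lower rescaled. Their median log2 difference was 0.13 as deposited beside 0.36 over all tested genes, and -0.24 rescaled beside 0.04. With only the CAC and Con libraries of 8 weeks in the fit, 9 members were called higher and 1 lower. Leaving out single libraries gave 10 to 16 higher and 1 to 3 lower as deposited, with 1 lower without CAC replicate 6 or without Con replicate 2.

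**Figure D1:**
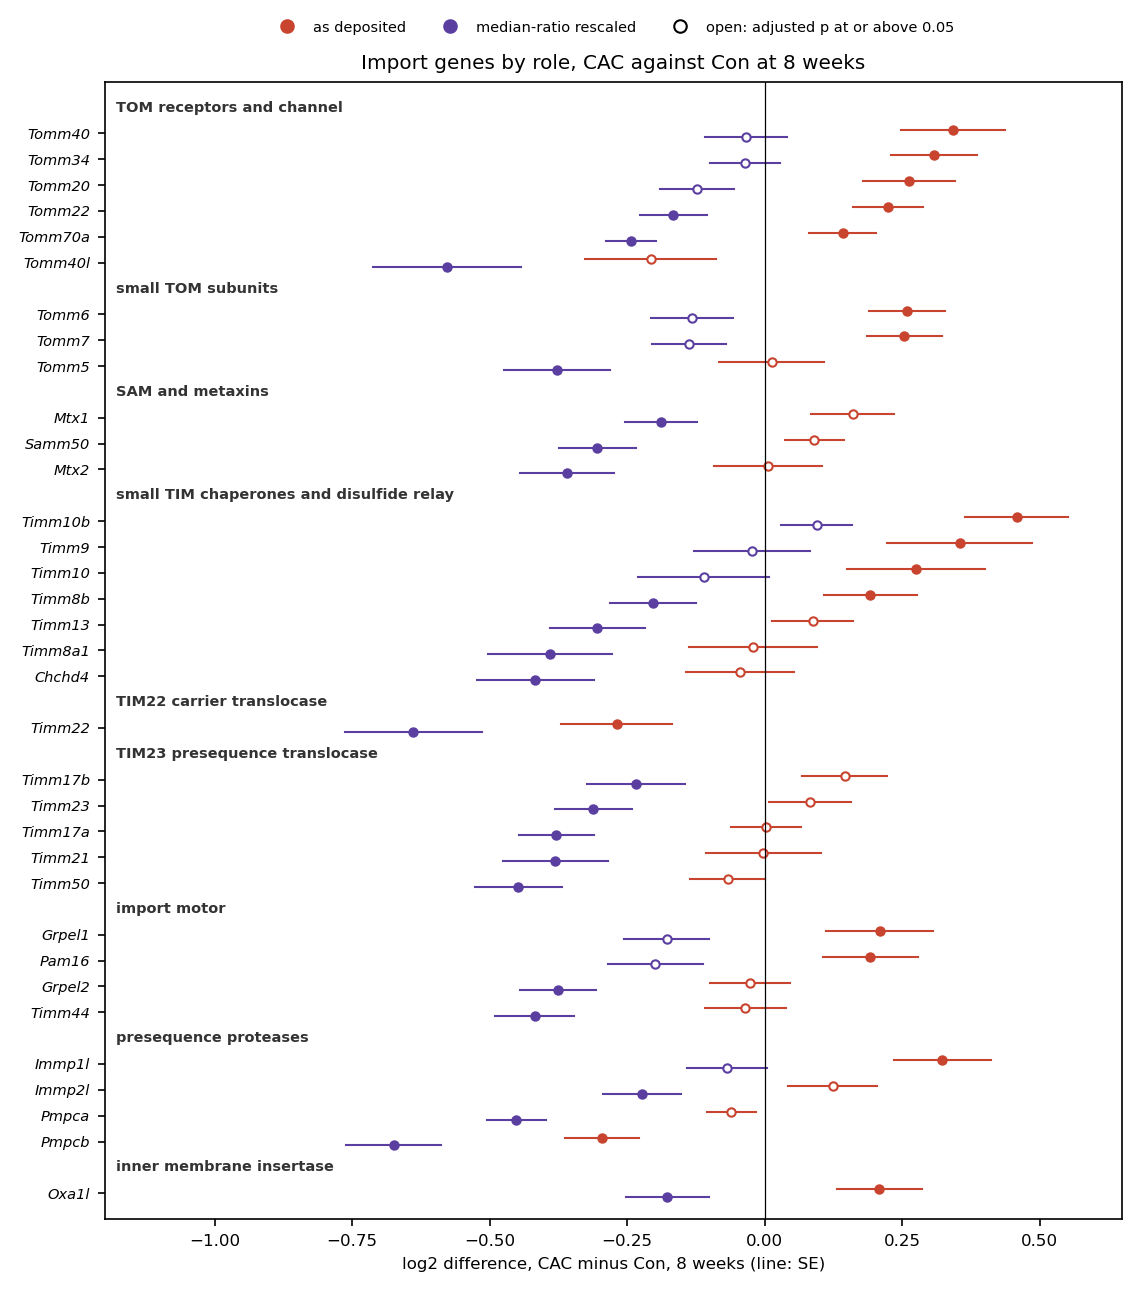
Log2 difference (CAC minus Con at 8 weeks, x axis) of the 34 tested import genes, grouped by role, with points for the estimate, lines for its SE and filled points for an adjusted p under 0.05. On the deposited scale 15 filled points lie to the right and 2 (Pmpcb and Timm22) to the left, whereas on the rescaled values all 23 filled points lie to the left of 0.

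Of the 15 genes called higher as deposited, 7 carried a Tomm symbol. The 6 tested genes grouped as TOM receptors and channel included Tomm34, a cytosolic co-chaperone. Of these 6, 5 were called higher as deposited and none was higher rescaled, where 3 were called lower. Beside them, 65.3% of all tested genes were called higher as deposited, and 24.9% higher and 21% lower rescaled. Tomm40 encodes the channel of the TOM complex (chromosome 7, 19701313 to 19715438, minus strand, mm10). Its TPM at 8 weeks was 16.9, 18.7, 16.3, 15.3 and 17.3 in Con and ran from 17.6 over a median of 21.1 to 31.2 in CAC. In 6 of 7 CAC libraries it was above the highest Con library, and the CAC library at 31.2 (replicate 6) lay far above the rest. The log2 difference was 0.34 ± 0.09 (SE, limma adjusted p = 0.00134) as deposited and -0.03 (adjusted p = 0.741) rescaled. Tomm40l, the related channel gene, was at 18.2, 24.1, 21.2, 17.8 and 18.5 TPM in Con and at 10.7 to 22.2 with a median of 18.9 in CAC, where 3 libraries lay below the Con range. Its log2 difference of -0.21 did not pass as deposited (adjusted p = 0.114), and that of -0.58 rescaled did (adjusted p = 0.000493). The exons of Tomm40l overlap those of Nr1i3 on the opposite strand for 3304 of 5135 bases, although Nr1i3 itself had a median of only 0.0675 TPM.

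Tomm34, a cytosolic co-chaperone that hands preproteins to the gate, was called higher on the deposited scale (chromosome 2, 164053540 to 164071169, minus strand). It stood at 5.6, 6.06, 6.02, 5.66 and 5.7 TPM in Con at 8 weeks, and between 6.6 and 9.36 with a median of 7.23 in CAC. All 7 CAC libraries lay above all 5 Con and all 5 NCAC libraries. For this and the other separations given here, the share of all tested genes that separate likewise was not counted. On this scale 65.3% of all tested genes were called higher. The rise of 0.31 ± 0.08 on the log2 scale (adjusted p = 0.000594) became -0.04 (adjusted p = 0.671) after rescaling. The presequence receptors Tomm20 and Tomm22 rose by 0.26 and 0.22 as deposited but stood at -0.12 and -0.17 rescaled, where Tomm22 was called lower (adjusted p = 0.0226). Tomm70a, the receptor for carrier precursors, rose by 0.14 as deposited and was called lower by -0.24 rescaled (adjusted p = 2.86e-05). Its call as deposited was lost in 5 of 12 fits without 1 library (CAC replicate 4 or 6, or Con replicate 3, 4 or 5), with adjusted p up to 0.107.

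Small TOM subunits stabilise the channel. Tomm6 and Tomm7 rose by 0.26 and 0.25 as deposited and were at -0.13 and -0.14 rescaled without passing the test. Tomm5 was at 0.01 as deposited and was called lower rescaled, by -0.38. Tomm6 shares 859 of its 1131 exon bases with Gm21981 on the same strand, so its value is less certain. In the outer membrane, Samm50, the core of the SAM complex, and its metaxin partners Mtx1 and Mtx2 were not called as deposited (0.09, 0.16 and 0.01), and all 3 were called lower rescaled (-0.30, -0.19 and -0.36). Beside them, 65.3% of all tested genes were called higher and 5.55% lower as deposited, and 21% lower rescaled.

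The small TIM chaperones, which carry hydrophobic precursors across the intermembrane space, included the largest rise of the 34 genes on the deposited scale. That gene was Timm10b (chromosome 7, 105640056 to 105643637, plus strand), with 8.52, 10.7, 9.38, 8.76 and 9.0 TPM in Con at 8 weeks and 10.4 to 15.9 with a median of 12.98 in CAC. All CAC libraries but 1 exceeded the highest Con library, and all 7 exceeded the highest NCAC library. Its log2 difference was 0.46 ± 0.09 (adjusted p = 3.97e-05) as deposited and 0.09 (adjusted p = 0.226) rescaled, the only member above 0 on that scale. Timm10b overlaps Arfip2 on the opposite strand over 277 of 3582 exon bases, and whether the authors' counting used strand is not given in the sources used here. It also shares 376 exon bases with Gm45799 on the same strand, so the value of Timm10b is less certain.

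Timm9 and Timm10 form the hexameric chaperone with each other. Timm9 (chromosome 12, 71123173 to 71136684, minus strand) was at 18.6, 17.9, 16.1, 15.8 and 17.1 TPM in Con and at 16.6 to 29.5 with a median of 21.0 in CAC, and 6 of 7 CAC libraries were above all Con libraries. Its log2 difference was 0.35 ± 0.13 (adjusted p = 0.0154) as deposited and -0.02 rescaled (adjusted p = 0.876), and the call as deposited was lost without CAC replicate 4 or 6. Timm10 (chromosome 2, 84826997 to 84830213, plus strand) was at 35.8, 45.5, 34.5, 37.6 and 38.1 TPM in Con and at 36.5 to 75.1 with a median of 40.4 in CAC. Here 5 of 7 CAC libraries fell within the Con range, and replicates 1 and 6, at 64.2 and 75.1 TPM, carried the difference of 0.28 ± 0.13 (adjusted p = 0.0465 as deposited; -0.11, adjusted p = 0.464, rescaled). The Timm10 call was lost in 6 of 12 fits that left out 1 library, with adjusted p up to 0.209. Timm8b rose by 0.19 as deposited (adjusted p = 0.04) and was called lower by -0.20 rescaled, and its call as deposited was lost in 8 of 12 such fits (without CAC replicate 2, 3, 4 or 6, or Con replicate 1, 3, 4 or 5), with adjusted p up to 0.15. Timm13, Timm8a1 and Chchd4, the oxidoreductase that traps small TIMs by disulfide bonds, were not called as deposited (0.09, -0.02 and -0.04) and were called lower rescaled.

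**Figure D2:**
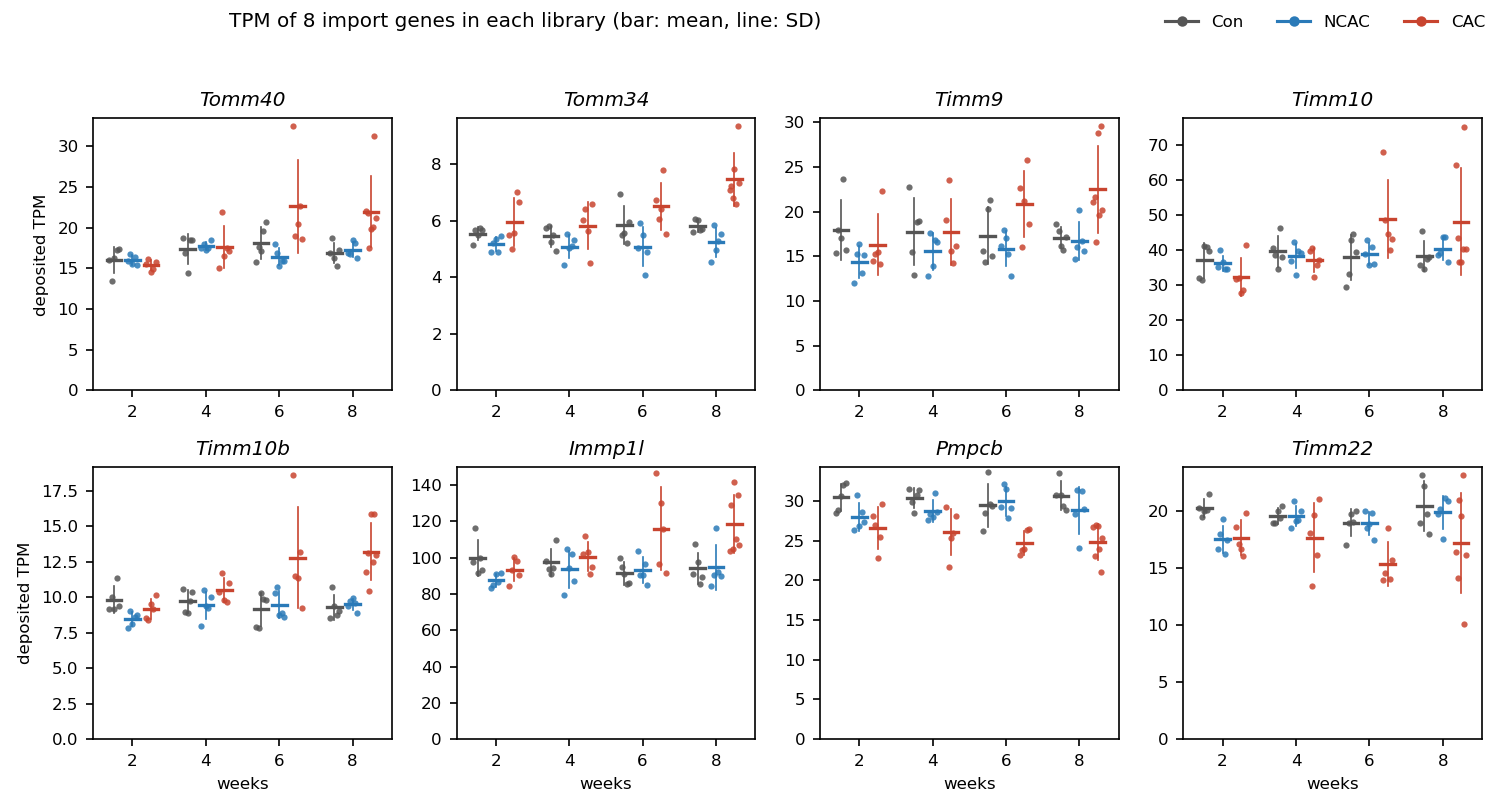
Deposited TPM (y axis, from 0) of 8 import genes in each library at 2, 4, 6 and 8 weeks, with points for libraries, horizontal bars for group means and vertical lines for the SD. The 7 CAC libraries at 8 weeks all lie above Con for Tomm34 and all lie below Con for Pmpcb. How many of all tested genes separate likewise was not counted. For Timm10 the CAC libraries at 64.2 and 75.1 TPM stand apart from the other 5.

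At the inner membrane Timm22, the only tested member in the carrier translocase role, was called lower on both scales. The calls of the presequence translocase genes differed by scale. Timm22, the channel of the carrier translocase (chromosome 11, 76406952 to 76416292, plus strand), was at 18.9, 23.2, 22.1, 19.7 and 17.9 TPM in Con at 8 weeks and at 10.04 to 23.1 with a median of 16.4 in CAC. Of the CAC libraries, 4 lay below the lowest Con library and 3 within the Con range. Timm22 fell by 0.27 on the log2 scale (SE 0.10, adjusted p = 0.0163) as deposited and by 0.64 rescaled (adjusted p = 4.75e-05), but the deposited call was lost without CAC replicate 6 or without Con replicate 2 (adjusted p up to 0.1). Among the 5 TIM23 genes, none was called as deposited, with differences from -0.07 for Timm50, the receptor subunit, to 0.15 for Timm17b, and at an unadjusted p under 0.05 the count was also 0. Of all tested genes, 73.1% passed that unadjusted level as deposited, and 65.3% were called higher and 5.55% lower. All 5 TIM23 genes were called lower rescaled, beside 21% of all tested genes. They ran from -0.23 for Timm17b to -0.45 for Timm50, with Timm23, the channel itself, at -0.31.

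The import motor pulls precursors into the matrix with the mitochondrial Hsp70, whose gene Hspa9 was at 0.00 as deposited and at -0.40 rescaled. Grpel1, its nucleotide exchange factor, and Pam16, which holds back the J-protein of the motor, were called higher as deposited by 0.21 and 0.19 (adjusted p = 0.0499 and 0.0429), close to the threshold, and were at -0.18 and -0.20 rescaled without passing. Each call as deposited was lost in 8 of 12 fits without 1 library, with adjusted p up to 0.228 for Grpel1 (without CAC replicate 1, 2 or 6, or any Con replicate) and 0.122 for Pam16 (without CAC replicate 2, 4, 5 or 6, or Con replicate 1, 3, 4 or 5). Timm44, which tethers Hsp70 to the channel, and Grpel2 were at -0.03 and -0.03 as deposited and were called lower rescaled (-0.42 and -0.38). Oxa1l, which inserts proteins into the inner membrane from the matrix side, rose by 0.21 as deposited and was called lower by -0.18 rescaled (adjusted p = 0.0488), and its call as deposited was lost without CAC replicate 6 (adjusted p = 0.0672).

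Of the 4 presequence proteases, Immp1l was called higher and Pmpcb lower as deposited, and after rescaling Pmpcb, Pmpca and Immp2l were called lower. The shares of all tested genes were 65.3% higher and 5.55% lower as deposited, and 21% lower rescaled. Pmpcb encodes the catalytic beta subunit of the mitochondrial processing peptidase, which cuts presequences off imported proteins, and Pmpca its substrate-binding alpha subunit. Pmpcb (chromosome 5, 21737141 to 21757152, plus strand) was at 30.8, 33.6, 30.7, 29.4 and 28.9 TPM in Con at 8 weeks and at 21.1 to 27.0 with a median of 25.3 in CAC. All 7 CAC libraries lay below all 5 Con libraries, and 3 of 7 lay below the lowest NCAC library. The share of all tested genes that separate in this way was not counted. It fell by 0.30 on the log2 scale (SE 0.07, adjusted p = 0.000144) as deposited and by 0.67 rescaled (adjusted p = 2.73e-08), and the call held in each of 12 fits without 1 library (adjusted p at most 0.00113). Pmpca stood at 89.1, 102, 92.9, 94.0 and 92.6 TPM in Con and 83.8 to 95.6 with a median of 90.5 in CAC, a difference of -0.06 (adjusted p = 0.225) that was -0.45 (adjusted p = 4.09e-09) rescaled.

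Immp1l, a subunit of the inner membrane peptidase, was the highest expressed of the rising genes described in full here (chromosome 2, 105904638 to 105965558, plus strand). Its TPM was 91.0, 107, 97.8, 85.5 and 89.3 in Con and 104 to 142 with a median of 110 in CAC at 8 weeks, with 4 of 7 CAC libraries above the Con range. The log2 difference of 0.32 ± 0.09 (adjusted p = 0.00127) as deposited was -0.07 (adjusted p = 0.451) rescaled. Immp2l, its partner subunit, was at 0.12 as deposited and was called lower rescaled, by -0.22.

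Because a ratio of 2 genes within a library does not depend on scaling, 8 pairs of related import genes were compared between CAC and Con at each week, 32 comparisons in all. None passed an exact two-sided permutation test after Benjamini-Hochberg adjustment (lowest adjusted p = 0.202), and 6 had an unadjusted p under 0.05. The smallest p that 5 libraries against 5 allow is 0.00794, while 7 against 5 allow a smaller one. A single comparison of 5 against 5 could therefore not pass adjustment over 32 comparisons. The lack of a pass at 2, 4 and 6 weeks thus does not show that the ratios were unchanged. The log2 ratio of Pmpca to Pmpcb was higher in CAC at each week, by 0.25 ± 0.08 (SE) at 2 weeks, 0.27 ± 0.08 at 4, 0.19 ± 0.09 at 6 and 0.25 ± 0.07 at 8 (unadjusted exact p = 0.0159, 0.00794, 0.0556 and 0.0189). Only at 4 weeks did the groups not overlap (1.67 to 2.06 in CAC, 1.47 to 1.61 in Con), which held for 1 of the 32 comparisons (3.12%). Against NCAC the test was run as an alternative, under the same limit, and passed in none of the 32 comparisons either.

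**Figure D3:**
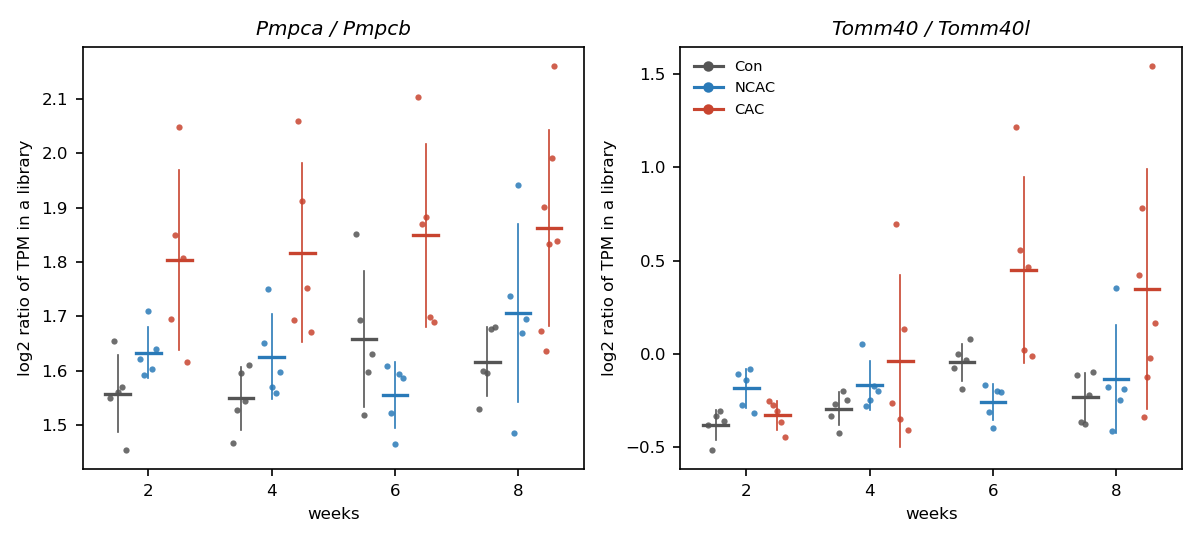
Log2 ratio of TPM within each library (y axis) for Pmpca to Pmpcb and for Tomm40 to Tomm40l at 2, 4, 6 and 8 weeks, with points for libraries, horizontal bars for group means and vertical lines for the SD. The Pmpca to Pmpcb means of CAC lie 0.19 to 0.27 above Con at all 4 weeks, while for Tomm40 to Tomm40l single CAC libraries at 1.22 (6 weeks) and 1.54 (8 weeks) lie far from the rest.

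The ratio of Tomm40 to Tomm40l was 0.50 ± 0.23 higher in CAC at 6 weeks and 0.58 ± 0.25 higher at 8 weeks (unadjusted exact p = 0.0476 and 0.0644). It varied widely among CAC libraries, from -0.34 to 1.54 at 8 weeks against -0.38 to -0.10 in Con. The highest library of each week, replicate 1 at 6 weeks and replicate 6 at 8 weeks, also had the highest TPM of its group for the muscle atrophy ubiquitin ligases Trim63 and Fbxo32, a pair chosen after their values were seen. Trim63 was at 2134 TPM in the first and 3202 in the second, where the other CAC libraries ran from 118 to 2393 and Con libraries at 6 and 8 weeks from 132 to 173. Fbxo32 was at 798 and 913 TPM in the same libraries, against 70.2 to 112 in Con. The same libraries were the highest of their groups in the ratio of Pmpca to Pmpcb (2.10 and 2.16). CAC replicate 1 at 8 weeks, second of its group in Trim63 (2393 TPM) and Fbxo32 (673), was the second lowest in that ratio (1.67), with a Tomm40 to Tomm40l ratio of 0.42. Their part in the calls is given by the fits without them.

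No member was called in CAC against Con at 2 weeks, and at 4 weeks the count depended on the scale. At 2 weeks limma called 0 of 34 members as deposited, beside 0.267% of all genes called higher and 0.0162% lower, and rescaling also gave 0 (0.275% and 0.0809% of all genes). At an unadjusted p under 0.05 there were 5 members as deposited (14.7%, beside 13.3% of all genes) and 18 rescaled (52.9%, beside 13.4%). At 4 weeks only Tomm70a was called higher (0.19, adjusted p = 0.0293) and only Pmpcb lower (-0.22, adjusted p = 0.022), beside 23% and 2.38% of all genes. Tomm70a was at 0.00 after rescaling, which called 0 members higher and 14 lower (7.76% and 7.68% of all genes), Pmpcb among them at -0.41. At 6 weeks 12 members were called higher and 2 lower as deposited (51.8% and 5.41% of all genes), and 0 higher and 15 lower rescaled (15.7% and 16.6%). The 2 lower as deposited were again Pmpcb (-0.24, rescaled -0.54) and Timm22 (-0.29, rescaled -0.59). The 12 fell to 5 without CAC replicate 1, to 7 without Con replicate 1 and to 4 with only the groups of 6 weeks in the fit, and the 2 fell to 1 without CAC replicate 1 or 4. At 4 weeks the call of Tomm70a was lost without CAC replicate 2, Con replicate 1 or Con replicate 3, and that of Pmpcb without CAC replicate 2, while without CAC replicate 5 there were 2 lower.

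Pmpcb had a lower mean in CAC than in Con in each week. Its mean TPM was 26.6 ± 2.62 (SD, n = 5) at 2 weeks, 26.1 ± 2.91 at 4, 24.8 ± 1.54 at 6 and 24.9 ± 2.24 (n = 7) at 8, against 30.5 ± 1.74, 30.4 ± 1.25, 29.5 ± 2.70 and 30.7 ± 1.82 in Con. The difference at 2 weeks, -0.19, did not pass (adjusted p = 0.243), and the change from 2 to 8 weeks was not called as deposited (-0.10, adjusted p = 0.416) but was called rescaled (-0.40, adjusted p = 0.0447).

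Whether the CAC against Con difference itself changed from 2 to 8 weeks was tested as an interaction. It was called for 8 of 34 members, all upward as deposited (27.2% of all genes upward, 1.27% downward), led by Timm10b at 0.55 (adjusted p = 0.00619). With rescaling 0 were called upward and 3 downward (3.93% and 4.22% of all genes): Pmpca at -0.41, Pmpcb at -0.40 and Tomm70a. An F test over all 4 weeks called 4 members as deposited (12.1% of all genes) and 1 rescaled, Pmpca (3.97%). As deposited these were 23.5% of the members for the change from 2 to 8 weeks and 11.8% for the F test, no more than the shares of all genes, and rescaled the 3 downward were 8.82%, beside 4.22%.

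**Figure D4:**
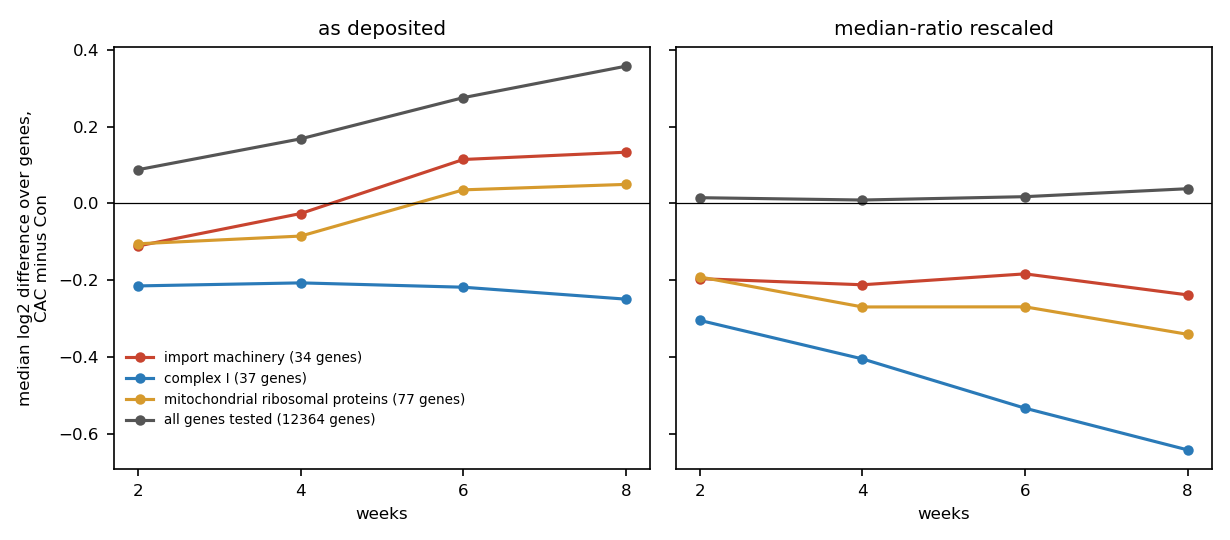
Median log2 difference over genes (CAC minus Con, y axis) at 2, 4, 6 and 8 weeks for 34 import genes, 37 complex I subunits, 77 mitochondrial ribosomal proteins and all 12364 tested genes, as deposited on the left and rescaled on the right. As deposited the import median goes from -0.11 to 0.13 while that of complex I stays between -0.25 and -0.21, and rescaled all 3 mitochondrial lists lie below 0 at every week.

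By their median at 8 weeks, the import genes stood between all tested genes and the complex I list, as did the mitochondrial ribosomal proteins. Complex I subunits, most of which are imported through this machinery, were taken by symbol, and the list also holds Ndufa4 and Ndufa4l2. Their median log2 difference was -0.25 as deposited and -0.64 rescaled at 8 weeks. Of 37, 2 were called higher and 27 lower as deposited, and 0 higher and 36 lower rescaled. For mitochondrial ribosomal proteins the medians were 0.05 and -0.34, with 19 of 77 higher and 12 lower as deposited and 0 and 58 rescaled. Of all tested genes, 65.3% were called higher and 5.55% lower as deposited, and 24.9% and 21% rescaled. The differences between these lists were not tested.

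Partners of the machinery outside the rule were given by lists. The counts below stand beside 65.3% of all tested genes called higher and 5.55% lower as deposited, and 24.9% and 21% rescaled. Whether any list differs from these shares was not tested. Of 18 import partners, 6 were called higher and 2 lower at 8 weeks as deposited, and 1 higher and 9 lower rescaled. The partner that rose on both scales was Gfer, the sulfhydryl oxidase that recharges Chchd4, with 0.88 ± 0.17 as deposited and 0.50 rescaled (adjusted p = 0.00395). Mipep, the peptidase that trims some precursors after the processing peptidase, fell by 0.36 as deposited and by 0.74 rescaled, in the direction of Pmpcb. Pitrm1, which degrades freed presequences, rose by 0.45 as deposited and was at 0.07 rescaled. In the list of quality-control proteases and Pink1, with 10 genes, 6 were higher and 0 lower as deposited, and 0 and 6 rescaled. Of 7 MICOS genes, 0 were higher and 3 lower as deposited (Apool, Immt and Minos1) and 0 and 6 rescaled. Of 7 cytosolic chaperones and stress factors, 4 were higher and 0 lower as deposited, and rescaled 1 was higher, Hsp90ab1 at 0.28, and 1 lower, Atf5 at -0.40.

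Against NCAC, which controls for a tumour without cachexia, Pmpcb and Timm22 were again the 2 genes called lower as deposited. At 8 weeks 15 members were called higher and 2 lower as deposited (67.5% and 4.8% of all genes), and 0 higher and 23 lower rescaled (25.1% and 20.6%). Tomm34 had the largest rise as deposited, 0.44 ± 0.08 (adjusted p = 5.34e-06), and was at 0.08 rescaled. Pmpcb fell by 0.20 (adjusted p = 0.00585; by 0.60 rescaled) and Timm22 by 0.24 (adjusted p = 0.033; by 0.62 rescaled), the latter lost without CAC replicate 2 or 6 or NCAC replicate 2, 4 or 5. With only the 8-week groups of CAC and NCAC in the fit both calls as deposited were lost (adjusted p = 0.0743 for Pmpcb and 0.222 for Timm22). At 6 weeks 19 were higher and 2 lower as deposited (64.1% and 4.64% of all genes), against 0 and 19 rescaled (21.6% and 20.2%), and the 19 higher became 12 without CAC replicate 1. These values share their CAC libraries with the comparisons to Con and are no independent repeat of them. At 2 and 4 weeks 0 members were called as deposited (1 called lower at 4 weeks without CAC replicate 5), beside 1.16% and 18.1% of all genes called higher and 0.0162% and 1.59% lower, and rescaling called 0 higher and 9 lower at 4 weeks (3.22% and 5.01% of all genes) and 0 at 2 weeks (0.364% and 0.0809%). At an unadjusted p under 0.05, as deposited, there was 1 member in each of these weeks (2.94%), beside 19.3% of all genes at 2 weeks and 38.8% at 4 weeks. Rescaled, 11 members passed that level at 2 weeks (32.4%, beside 13.05% of all genes).

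Between NCAC and Con, limma called 0 of 34 members at each of the 4 weeks on both scales, as it did 0% of all genes. At an unadjusted p under 0.05, as deposited, the counts were 5 (14.7% of the members), 0, 1 (2.94%) and 0 at 2, 4, 6 and 8 weeks. The shares of all genes were 3.81%, 1.81%, 7.35% and 1.12%. Rescaled, the counts were 3 (8.82%), 0, 2 (5.88%) and 0, beside 3.86%, 3.09%, 4.15% and 1.45% of all genes. The median difference of the members was -0.11 at 2 weeks and -0.03 at 8 weeks as deposited. Pmpcb was at 28.8 ± 2.97 TPM (SD, n = 5) in NCAC at 8 weeks, between the CAC and Con means, and differed from Con by -0.09 (adjusted p = 1).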

How the data were processed

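Poly(A) RNA libraries from gastrocnemius (TruSeq stranded mRNA, Illumina NovaSeq, per the labels' protocols) had been quantified by the authors, who deposited 1 table of TPM, aligned to mm10 per the submitters' processing notes. For the aligner, the annotation and the use of strand, nothing is given in the sources used here. Members and gene lists were chosen with earlier results of these data known. Depth was estimated from the steps of low TPM values and GENCODE exon lengths (77.8 to 79.5% of values of 1 to 20 reads came within 0.02 of a whole number), so no count test was run. TPM + 1 was taken to log2, and the 12364 genes that reached 1 TPM in 5 or more libraries were fitted with limma 3.58.1 in R 4.3.3, with 12 group means, a mean-variance trend and Benjamini-Hochberg adjustment at 0.05. The same fit was repeated after dividing each library by its median ratio. Ratios of related genes used exact permutation in Python 3.11.15 with numpy 2.4.6. The named genes are the 6 largest rises and up to 6 largest falls called at 8 weeks (only 2 fell), and both scripts were tested on simulated data. Replicate numbers pair no samples (see the closing section). Alternatives were a pseudocount of 0.1, no filter, rescaling, only the groups compared, a replicate block and each library left out. No protein sequences were used here.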

Additional observations from a re-analysis of the deposited data

Results flagged for a closer look

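In 96 groups of TPM values (8 genes in 12 groups), 4 libraries lay farther from their group than the 95% critical value of Dixon's test allows, where chance gives about 1 in 20. Tomm40 was at 31.2 TPM in CAC replicate 6 at 8 weeks. Timm9 stood at 22.3 TPM in CAC replicate 5 at 2 weeks. Immp1l reached 116 TPM in NCAC replicate 3 at 8 weeks, and Pmpcb 31.1 TPM in NCAC replicate 4 at 4 weeks.

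The CAC against Con difference changed between weeks for several members on the deposited scale, at no higher share than in the whole table: the F test called 11.8% of members beside 12.1% of all genes, and the change from 2 to 8 weeks was called upward for 23.5% beside 27.2%. The limma F test over 4 weeks gave adjusted p = 0.0428 for Immp1l, 0.0161 for Pam16, 0.0161 for Timm10b and 0.0187 for Tomm7. The log2 difference at 8 weeks minus that at 2 weeks was 0.55 for Timm10b, 0.47 for Pam16, 0.47 for Timm10, 0.44 for Tomm7, 0.41 for Immp1l, 0.39 for Tomm40, 0.36 for Timm8b and 0.33 for Tomm20. After rescaling none of these 8 passed either test.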

How the results depend on the processing

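Scaling decided the direction of most calls. With median-ratio scaling the members called higher in CAC against Con became 0 of the 1, 12 and 15 at 4, 6 and 8 weeks, and those called lower became 14, 15 and 23. Against NCAC they became 0 higher at 6 and 8 weeks and 9, 19 and 23 lower at 4, 6 and 8 weeks. The change from 2 to 8 weeks, whose alternatives were added after seeing the data, became 0 upward and 3 downward, and the F test 1. The log2 differences that changed sign with this scaling were, for CAC against Con at 8 weeks, Grpel1 -0.18, Immp1l -0.069, Oxa1l -0.18, Pam16 -0.20, Timm10 -0.11, Timm8b -0.20, Timm9 -0.022, Tomm20 -0.12, Tomm22 -0.17, Tomm34 -0.036, Tomm40 -0.033, Tomm6 -0.13, Tomm7 -0.14 and Tomm70a -0.24, with Tomm40 at -0.023 at 6 weeks and Tomm70a at -0.0039 at 4 weeks. Against NCAC they were Immp1l -0.13, Timm10 -0.12, Timm10b -0.027, Timm9 -0.036 and Tomm34 -0.059 at 6 weeks, and Immp1l -0.088, Timm9 -2.38e-05 and Tomm40 -0.085 at 8 weeks.

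With only the groups compared in the fit, CAC against Con gave 0 higher and 0 lower at 4 weeks, 4 higher at 6 weeks and 9 higher and 1 lower at 8 weeks, CAC against NCAC gave 9 higher at 6 weeks and 0 lower at 8 weeks, and the F test gave 1. This fit holds fewer samples. Without the filter, 1 was lower against NCAC at 8 weeks and 5 changed upward from 2 to 8 weeks. A pseudocount of 0.1 changed no count by over 1.5 times.

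Replicate numbers did not pair the samples: same-numbered libraries of different groups had a median correlation of their deviations of -0.0021 (60 pairs, 16 above 0.1) and others -0.0058 (260 pairs, 67 above 0.1). With the replicate block, 1 member was lower in CAC at 8 weeks against Con and 1 against NCAC (Pmpcb in both), and 4 changed upward from 2 to 8 weeks. The block moved no other count by over 1.5 times.

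Leaving out each library in turn gave, for CAC against Con, 0 to 1 higher and 0 to 2 lower at 4 weeks, 5 to 14 higher and 1 to 2 lower at 6 weeks, and 10 to 16 higher and 1 to 3 lower at 8 weeks. Against NCAC it gave 0 to 1 lower at 4 weeks, 12 to 20 higher and 2 to 3 lower at 6 weeks, and 13 to 16 higher and 1 to 2 lower at 8 weeks. The cause of these changes was not tested. No ratio passed under any alternative, where the smallest possible p again limits what so few libraries can show. The depth is estimated, and TPM without spike-ins gives no absolute level.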
